A study of Mus musculus with 4 samples.

Results

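Hox genes encode homeodomain transcription factors and lie in 4 clusters, named HoxA to HoxD. The members described here are all genes of the array annotation whose single symbol is Hox followed by a cluster letter and a number. They are 33 of the 18194 genes with a single symbol, and they are read by 48 of the 45037 probe sets left after the array's own controls were removed. The HoxA and HoxB clusters had 9 members each, HoxC had 7 and HoxD had 8. A further 8 probe sets carried a Hox name but were no members, because they named an antisense transcript or, for 3 of them, a pair of Hox genes.

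RNA was measured in cultured mouse liver cells on 4 Affymetrix Mouse430_2 arrays, with 5 µg of total RNA as the starting material of each. The resident liver stem cell (RLSC) group was a pair of lines, each on 1 array. MetE14/3 was grown from the liver of an embryo carrying the cyto-Met transgene, a truncated form of the Met receptor, at 14 days post coitum, and comes from a single clone, B2. WTE14/1 was grown from the liver of an embryo of the same age that the label marks WT, and its source name reads WT E14/3. Both RLSC lines were picked for a palmate colony shape and passed through about 50 cell generations before freezing, in DMEM with serum on collagen. MMH-D3 was measured on 2 arrays and is used as the differentiated hepatocyte line. Its labels give neither a transgene nor an age for the line, and the shared culture protocol speaks of fetal and newborn livers. Each RLSC group value therefore spans 2 lines of different genotype, while the MMH-D3 labels do not say whether its arrays came from separate cultures. Every p-value below is therefore set against the spread among these 4 arrays alone, part of which may be technical.

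Hox genes are arranged along each chromosome in the order in which they are used along the body axis, and numbers mark this order. Low numbers (anterior paralogues) act in the hindbrain and neck, central ones in the thorax, and high numbers (posterior paralogues) in the lumbar, sacral, limb and urogenital regions. Cells grown from an organ commonly keep part of the Hox pattern of their place of origin, Polycomb proteins hold silent stretches of a cluster shut, and retinoic acid and Cdx proteins help to open them.

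The cell labels were checked against marker genes. Summed over the hepatocyte markers, the MMH-D3 arrays had signals of 9801 and 15494, MetE14/3 had 549 and WTE14/1 had 198, and 3 of the 7 tested (Apob, Rbp4 and Afp) were lower in RLSC by limma with adjusted p-values of 0.0371 to 0.0432. Albumin itself was at 44.7 and 440 on the MMH-D3 arrays, and at 1.7 and 2.91 in the RLSC lines. Mesothelial markers were also lower in RLSC for 3 of 6 genes tested (Upk1b, Wt1 and Bnc1), with summed signals of 10220 and 5069 against 24591 and 31319. Haematopoietic markers, which matter here because blood cells use Hox genes, had summed signals of 165, 208, 118 and 208 in the order MetE14/3, WTE14/1, MMH-D3 array 1 and MMH-D3 array 2, and 0 of 5 tested passed. Stellate and fibroblast markers summed to 326, 204, 80.8 and 169 in the same order, with 0 of 4 passing, and no marker was listed at exactly 0. Pdgfrb alone read 248, 65.8, 0.2 and 1.19 (difference 4.70, limma adjusted p 0.067). Of the 4 tested, 2 had both RLSC lines above both MMH-D3 arrays and 1 had them below, against 20.8% and 21.4% of all genes. None of 1 endothelial, 5 neural and 4 cholangiocyte markers tested passed either. The cholangiocyte markers summed to 8918, 4201, 13389 and 16370 in the same order. Krt19 read 7169.7, 2900, 10761.5 and 12768 and is on the mesothelial list too, so the sums of these lists are not separate checks. All 4 cholangiocyte markers had an unadjusted limma p under 0.05, against 12.4% of all genes, with Krt7, Krt19 and Epcam lower in RLSC and Sox9 higher. Of the 5 neural markers 1 did (Tubb3, higher in RLSC). The spike-in controls paired the arrays. The 24 poly-A control probe sets had a median 10.7-fold higher signal on MetE14/3 and MMH-D3 array 1 (pair A) than on WTE14/1 and MMH-D3 array 2 (pair B), so each pair holds 1 RLSC line and 1 MMH-D3 array. Signals were also deposited with 1 decimal in pair A and with up to 7 in pair B. Because MetE14/3 and WTE14/1 lie in different pairs, line and pair cannot be told apart.

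Hox signals were low on every array. Over the 48 probe sets the median signal was 5.4 in MetE14/3, 8.71 in WTE14/1, 4.35 on MMH-D3 array 1 and 9.83 on MMH-D3 array 2, while the median over all probe sets was 19.6, 27.98, 16.9 and 23.04. The median Hox probe set stood at percentile 24.7, 27.3, 24.7 and 32.2 of all probe sets on these arrays. Signals of 100 or more were found for 3 Hox probe sets in MetE14/3 and 2 in WTE14/1, and for 0 on either MMH-D3 array. The highest Hox signal was that of Hoxa10 in both RLSC lines (213 and 159), of Hoxb6 on MMH-D3 array 1 (72.4) and of Hoxa5 on MMH-D3 array 2 (98.6). Between 13 and 23 of the 48 probe sets lay below a signal of 4 on each array, the amount added to every value before the log2 was taken. Of the 33 members, 12 passed the filter on low signals and were tested: 5 of HoxA, 5 of HoxB, 1 of HoxC and 1 of HoxD. The 21 not tested had no signal above 23.9 in HoxA, 30.5 in HoxB, 17 in HoxC and 22.5 in HoxD. A low signal on an array is not evidence that a gene is silent, and in bulk RNA fewer cells of a type and less RNA per cell cannot be told apart.

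**Figure D1:**
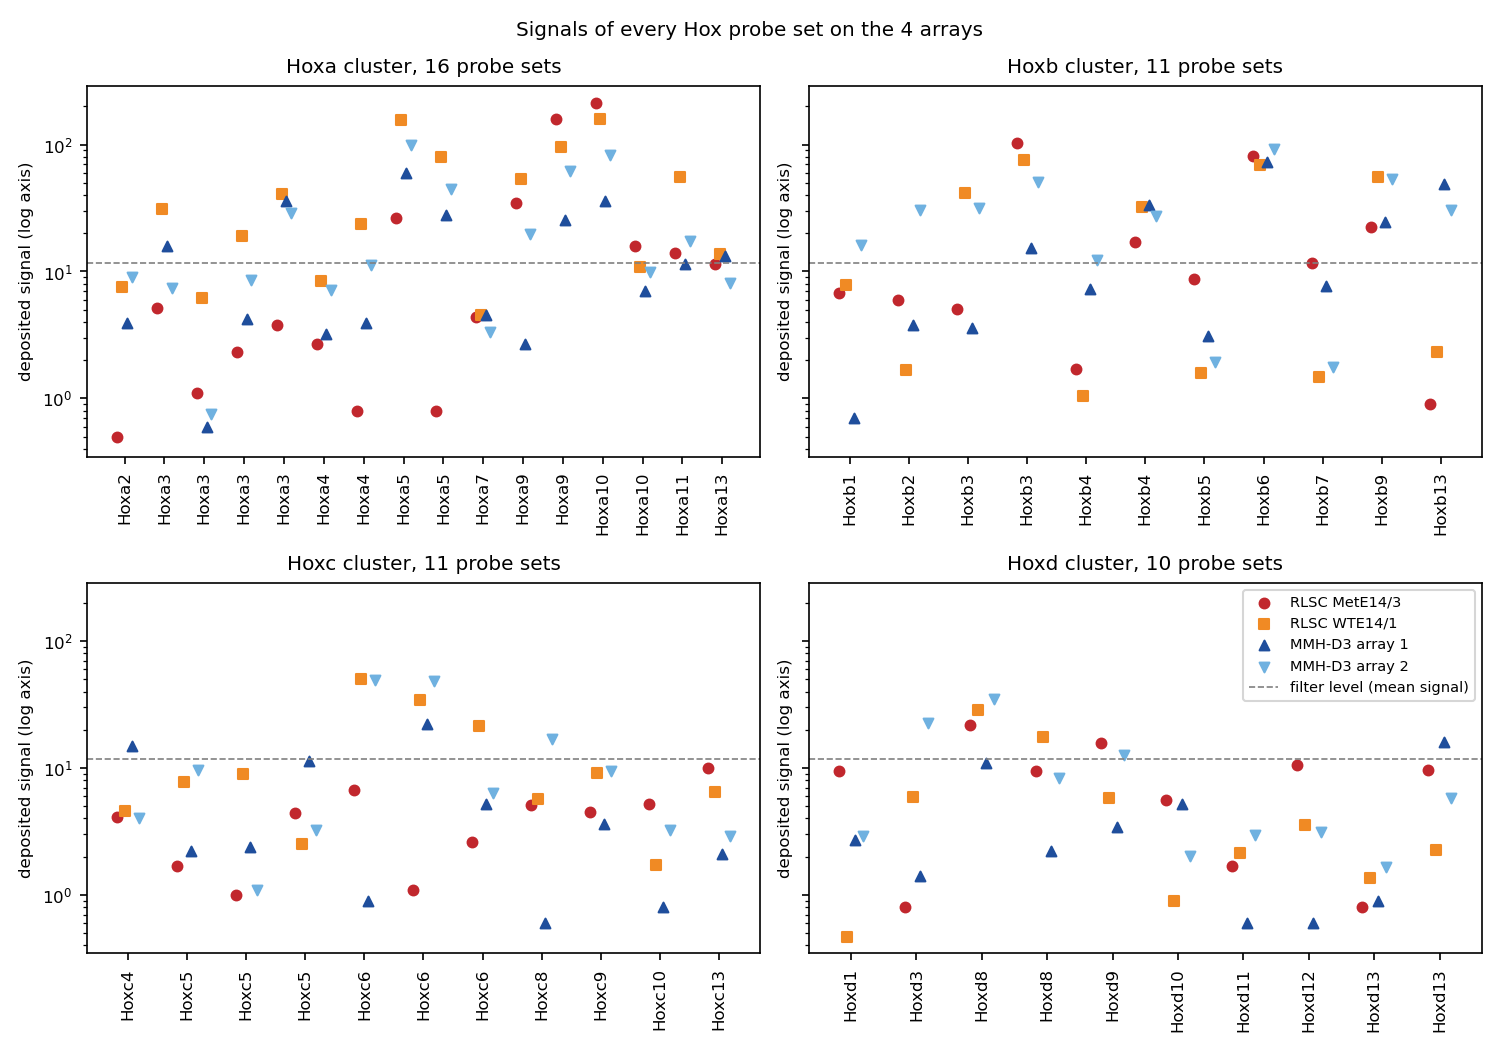
Deposited signal of each of the 48 Hox probe sets (log axis) on the 4 arrays, ordered by paralogue number within each cluster, with 1 symbol per array. The dashed line marks the signal of about 11.7 that a probe set's mean had to reach to be tested, and the points above 100 are those of Hoxa5, Hoxa9, Hoxa10 and Hoxb3.

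Promoter sequences on chromosome 6 are shown for the 4 HoxA genes on which the comparisons below turn. These are Hoxa3 and Hoxa5, at least 4-fold apart between the RLSC lines, and Hoxa9 and Hoxa10, higher in both RLSC lines than on both MMH-D3 arrays. The sequences stand for annotated starts, and which start gave the RNA that the probe sets read was not tested. They are RefSeq windows of GRCm38.p6 from 250 bases before to 50 bases after a start, all on the minus strand, written 5′ to 3′ with CpG dinucleotides in capitals. Hoxa10 has a pair of annotated starts, and both windows are given. The Hoxa3 window lies between those of Hoxa5 and Hoxa7 on the chromosome.
Hoxa3 chr6:52213018-52213317: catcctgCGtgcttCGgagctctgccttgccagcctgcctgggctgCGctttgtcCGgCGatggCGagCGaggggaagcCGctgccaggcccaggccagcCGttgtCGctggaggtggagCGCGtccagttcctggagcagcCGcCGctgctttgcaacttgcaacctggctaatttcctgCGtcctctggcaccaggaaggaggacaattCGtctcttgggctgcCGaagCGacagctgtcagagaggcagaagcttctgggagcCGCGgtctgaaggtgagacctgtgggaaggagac
Hoxa5 chr6:52204538-52204837: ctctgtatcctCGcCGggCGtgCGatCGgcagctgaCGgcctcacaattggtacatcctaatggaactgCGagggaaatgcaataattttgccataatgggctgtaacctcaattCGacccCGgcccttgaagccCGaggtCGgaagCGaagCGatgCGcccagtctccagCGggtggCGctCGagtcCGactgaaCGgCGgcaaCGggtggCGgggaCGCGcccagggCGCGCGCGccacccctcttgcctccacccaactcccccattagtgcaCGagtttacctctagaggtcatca
Hoxa9 chr6:52227321-52227620: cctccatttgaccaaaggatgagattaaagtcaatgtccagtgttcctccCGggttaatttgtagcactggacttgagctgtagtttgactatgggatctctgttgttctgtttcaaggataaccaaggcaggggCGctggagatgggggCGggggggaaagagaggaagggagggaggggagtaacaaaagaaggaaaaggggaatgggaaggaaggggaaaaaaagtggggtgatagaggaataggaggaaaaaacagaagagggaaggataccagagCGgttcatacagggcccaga
Hoxa10 chr6:52240805-52241104: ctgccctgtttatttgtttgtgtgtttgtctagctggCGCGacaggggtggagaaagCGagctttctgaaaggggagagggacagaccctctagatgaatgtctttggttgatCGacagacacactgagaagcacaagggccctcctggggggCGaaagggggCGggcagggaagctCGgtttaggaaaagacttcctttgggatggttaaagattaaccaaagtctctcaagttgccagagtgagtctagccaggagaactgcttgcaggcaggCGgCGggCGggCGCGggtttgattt
Hoxa10 chr6:52234890-52235189: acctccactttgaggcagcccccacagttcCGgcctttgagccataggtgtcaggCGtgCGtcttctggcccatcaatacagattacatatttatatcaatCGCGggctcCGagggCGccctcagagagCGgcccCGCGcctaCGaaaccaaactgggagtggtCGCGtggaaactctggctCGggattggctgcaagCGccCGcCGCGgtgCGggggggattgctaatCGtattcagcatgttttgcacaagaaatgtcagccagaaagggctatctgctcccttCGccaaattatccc
These windows held 20 CpG dinucleotides for Hoxa3, 29 for Hoxa5, 4 for Hoxa9, and 12 and 21 for the windows of Hoxa10 at chr6:52240805-52241104 and chr6:52234890-52235189. The RefSeq table matched 19 of the 33 members with 21 windows, whose median was 15 CpG dinucleotides (range 4 to 45), against 7 over all 32851 windows of the table. At least 20 CpG dinucleotides were found in 10 of the 21 (47.6%) against 26.5% of all windows. On either strand, AGGTCA, the core letters bound by retinoic acid receptors, was found in 6 of 21 (28.6%) against 16.3%, CCAAT in 12 (57.1%) against 37.4%, TATAAA in 2 (9.52%) against 13.6%, and TGATTNAT, the letters of a joint Pbx and Hox site, in 2 (9.52%) against 3.22%. Hoxa5 carried AGGTCA in its window. A match is a description of letters and not of a bound site, and methylation was not measured here.

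No Hox member passed the test of RLSC against MMH-D3. With limma, 0 of 12 tested members reached an adjusted p of 0.05, where 0.397% of the 12598 genes tested were called higher and 0.516% lower. An unadjusted p under 0.05 was reached by 2 of the 12 (Hoxa10 and Hoxb13), against 12.4% of all genes, and Hoxb13 passed the filter only through the MMH-D3 arrays, where it was high. Without the filter on low signals 0 of 33 members were called, against 0.0495% of 18193 genes. On the normalized values, 3 members had both RLSC lines above both MMH-D3 arrays (Hoxa9, Hoxa10 and Hoxb3), or 25% against 20.8% of all genes, and 4 had them below (Hoxb4, Hoxb6, Hoxb13 and Hoxc6), or 33.3% against 21.4%. On the signals as deposited these were 3 and 1 (Hoxb13), against 23.1% and 17.2%. The median difference, RLSC minus MMH-D3 on the log2(value + 4) scale, was −0.29 over the 12 members and 0.03 over all genes tested, and within the pairs it was −0.22 in pair A and 0.07 in pair B for the members. Counting each of the 17 Hox probe sets past the filter by itself put the median at 0.0045.

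Among the anterior and central genes of HoxA, Hoxa3 and Hoxa5 were tested. Hoxa3, needed for the thymus, parathyroid and neck, had signals of 3.8 in MetE14/3, 40.7 in WTE14/1, 36.1 on MMH-D3 array 1 and 28.7 on array 2. WTE14/1 lay beside the MMH-D3 arrays and MetE14/3 below them, so the groups overlapped. The RLSC mean was 22.2 ± 26.1 and that of MMH-D3 32.4 ± 5.21 (SD, n = 2 each), the difference was −1.23 (SE 0.83, limma adjusted p 0.652), and 1 of the 4 Hoxa3 probe sets had that sign. Without MetE14/3 the difference was −0.16, and without WTE14/1 it was −2.26. In all 4 of them MetE14/3 was the lower of the RLSC lines.

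Hoxa5, a gene of lung and neck patterning, had signals of 26.6 in MetE14/3, 156 in WTE14/1, 59.7 on MMH-D3 array 1 and 98.6 on array 2 at its brighter probe set. MMH-D3 lay between the RLSC lines. Its other probe set read 0.8, 79.4, 28 and 44.3 in the same order, with the same ranking of the arrays. The difference between the groups was −0.34 (SE 0.78, limma adjusted p 0.925), and within the pairs it was −1.25 in pair A and 0.58 in pair B. The probe set used for the test has the suffix x_at, with which the array's maker marks probes that may also match other transcripts; the second has none.

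Between the RLSC lines no test was possible with 1 array each. WTE14/1 was at least 4-fold above MetE14/3 for 3 of the 12 tested members, against 2.33% of all genes. These were Hoxa3 (4.39-fold on the log2(value + 4) scale), Hoxa5 (4.49-fold) and Hoxc6 (5.79-fold). The MetE14/3 signals of Hoxa3 (3.8) and Hoxc6 (1.1) lay below the amount added before the log2, so their folds depend on that amount. With a pseudocount of 16 in place of 4, which shrinks every fold, the count was 0 of 12. MetE14/3 was at least 4-fold above WTE14/1 for 0 of 12, against 2.8%. The MMH-D3 arrays, which fall in the same pairs A and B, were at least 4-fold apart for 0 of 12, against 5.96%. Without the filter Hoxa4 was added, with signals of 0.8 in MetE14/3, 23.9 in WTE14/1, 3.9 on MMH-D3 array 1 and 11.2 on array 2, making 4 of 33 against 2.33% of all genes. The MMH-D3 arrays were then at least 4-fold apart for 2 of 33 members (6.06%), beside 5.96% of all genes with the filter. Hoxa4 was named after its values were seen, as were Hoxa11, Hoxb4, Hoxb6, Hoxb9, Hoxb13 and Hoxd8 in what follows.

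Read along the HoxA cluster on the normalized values, 9 of the 10 probe sets for paralogues 1 to 8 were higher in WTE14/1, with a median MetE14/3 minus WTE14/1 of −1.56 (range −3.88 to 0.19). The exception was Hoxa7, whose deposited signals were 4.4 and 4.53 and whose normalized difference was 0.19. The same 10 probe sets had a median MMH-D3 array 2 minus array 1 of 0.26 (range −1.14 to 0.66). Among the 6 HoxA probe sets for paralogues 9 to 13, 2 were higher in WTE14/1 and 4 in MetE14/3, with a median of 0.35. For HoxB paralogues 1 to 8 the split was 7 of 9 higher in MetE14/3, and for HoxD paralogues 9 to 13 it was 5 of 6, with a median of 1.14, although no signal of those HoxD genes exceeded 15.9. Probe sets of 1 gene share its transcript, and neighbours in a cluster are not independent of each other. Over all 33 members WTE14/1 was the higher line for 11, against 50.2% of genes, but among the 12 past the filter it was the higher line for 7. Over all 33, MMH-D3 array 2 was above array 1 for 21, against 50.1% of genes. The other segments were split 2 to 2 (HoxD paralogues 1 to 8), 5 to 3 (HoxC paralogues 1 to 8), 1 to 2 (HoxC paralogues 9 to 13) and 2 to 0 (HoxB paralogues 9 to 13), the count higher in WTE14/1 given first. Most of these probe sets lay below the filter, and none of the splits was tested.

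**Figure D2:**
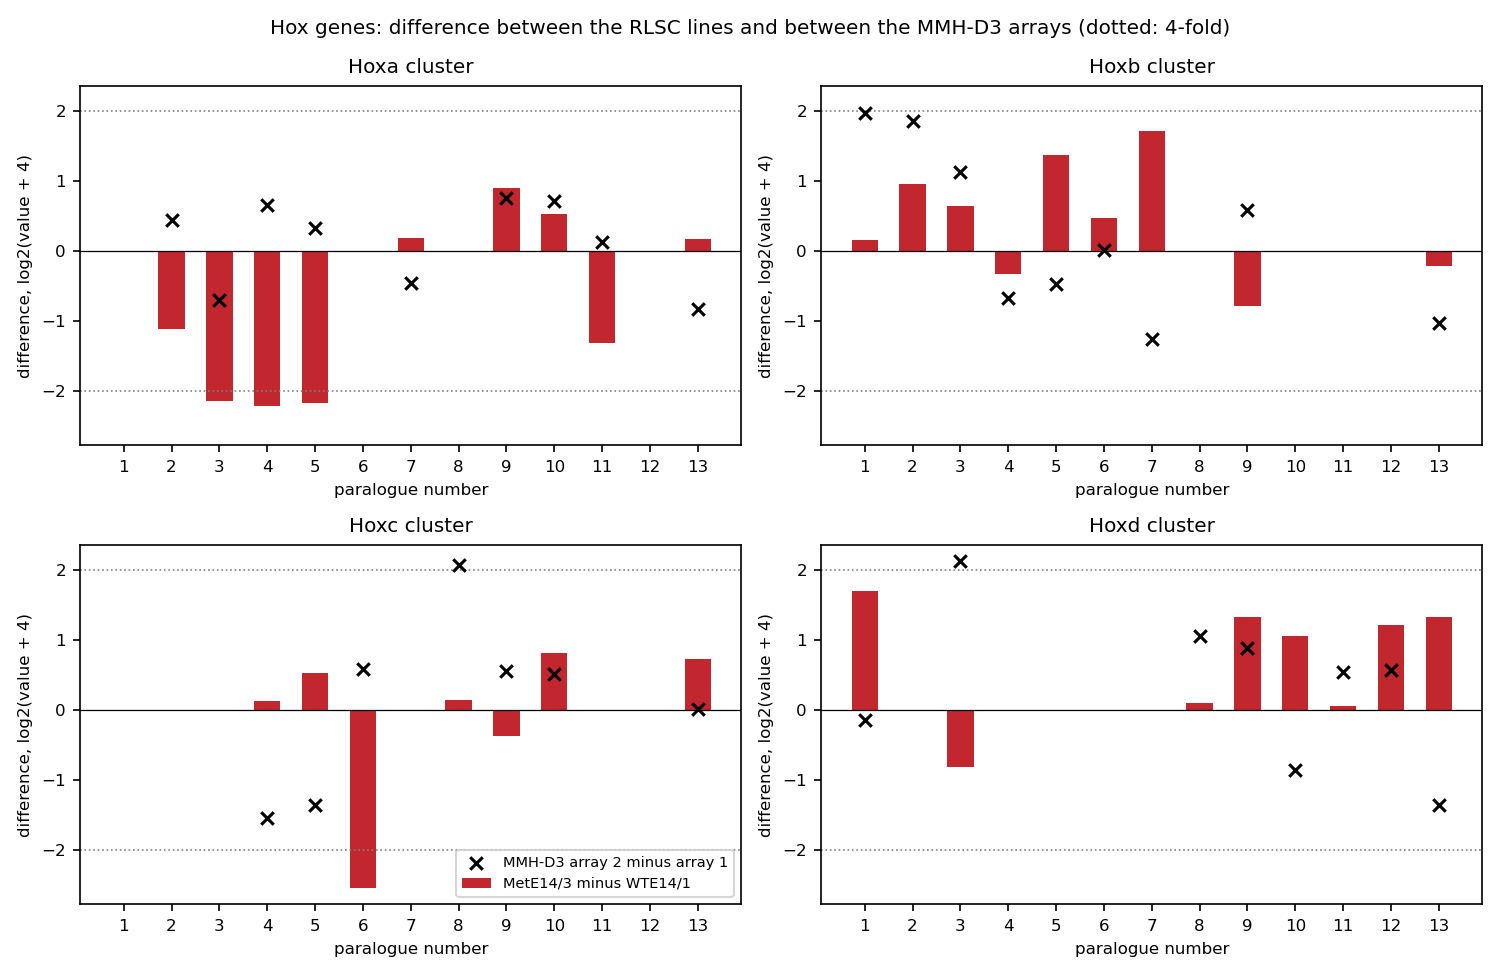
Difference between the RLSC lines (bars, MetE14/3 minus WTE14/1) and between the MMH-D3 arrays (crosses, array 2 minus array 1) on the log2(value + 4) scale for each Hox gene, by paralogue number in the 4 clusters, each gene at its probe set with the highest mean. Dotted lines mark 4-fold; Hoxa3, Hoxa4, Hoxa5 and Hoxc6 pass the lower one.

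Hoxc6, a thoracic gene, was the third gene with a wide gap between the lines. Its tested probe set, also of the x_at kind, read 1.1 in MetE14/3, 34.1 in WTE14/1, 22.2 on MMH-D3 array 1 and 48.2 on array 2. On these deposited signals the groups overlapped, and after normalization both RLSC lines were below both MMH-D3 arrays, WTE14/1 by a narrow margin (4.92 against 5.03 on the log2 scale). The difference was −1.68 (SE 0.91, limma adjusted p 0.555), or −0.40 without MetE14/3 and −2.87 without WTE14/1. A second Hoxc6 probe set read 6.7, 50.3, 0.9 and 49.7, so that the arrays of pair B were both high and those of pair A both low, and only 1 of the 3 Hoxc6 probe sets had the sign of the tested one.

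Of the posterior HoxA genes, Hoxa9 and Hoxa10 read higher in both RLSC lines than on both MMH-D3 arrays, and Hoxa11 and Hoxa13 did not. Hoxa10, a posterior gene with roles in the uterus and in blood progenitors, read 213 in MetE14/3, 159 in WTE14/1, 36.0 on MMH-D3 array 1 and 82.9 on array 2. Both RLSC lines were above both MMH-D3 arrays, with means of 186 ± 38.5 and 59.4 ± 33.2 (SD, n = 2 each). The difference was 1.47 (2.77-fold, SE 0.52), with a limma adjusted p of 0.319 over all genes tested, and it was 2.10 in pair A and 0.84 in pair B. The second Hoxa10 probe set read 15.9, 10.9, 7.0 and 9.93, below the filter. Both RLSC lines were the higher ones as deposited, but after normalization WTE14/1 lay just below both MMH-D3 arrays.

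Hoxa9, a gene of posterior patterning and blood stem cells, read 159 in MetE14/3, 95.8 in WTE14/1, 25.4 on MMH-D3 array 1 and 61.5 on array 2. The groups did not overlap here, nor at its second probe set, which read 34.9, 53.2, 2.7 and 19.8. The difference was 1.32 (SE 0.57, limma adjusted p 0.435), 2.14 in pair A and 0.49 in pair B. Hoxa11, the next gene along and a limb and uterus gene, read 13.9, 55.2, 11.5 and 17.5, with MetE14/3 between the MMH-D3 arrays and WTE14/1 above them, and its difference was 0.67 (SE 0.65, limma adjusted p 0.789), or 1.29 without MetE14/3 and 0.010 without WTE14/1. Hoxa13 was not tested, with signals of 8.12 to 13.7. The haematopoietic markers given above did not differ by the test between the groups, and their part in the Hoxa9 and Hoxa10 values was not tested.

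**Figure D3:**
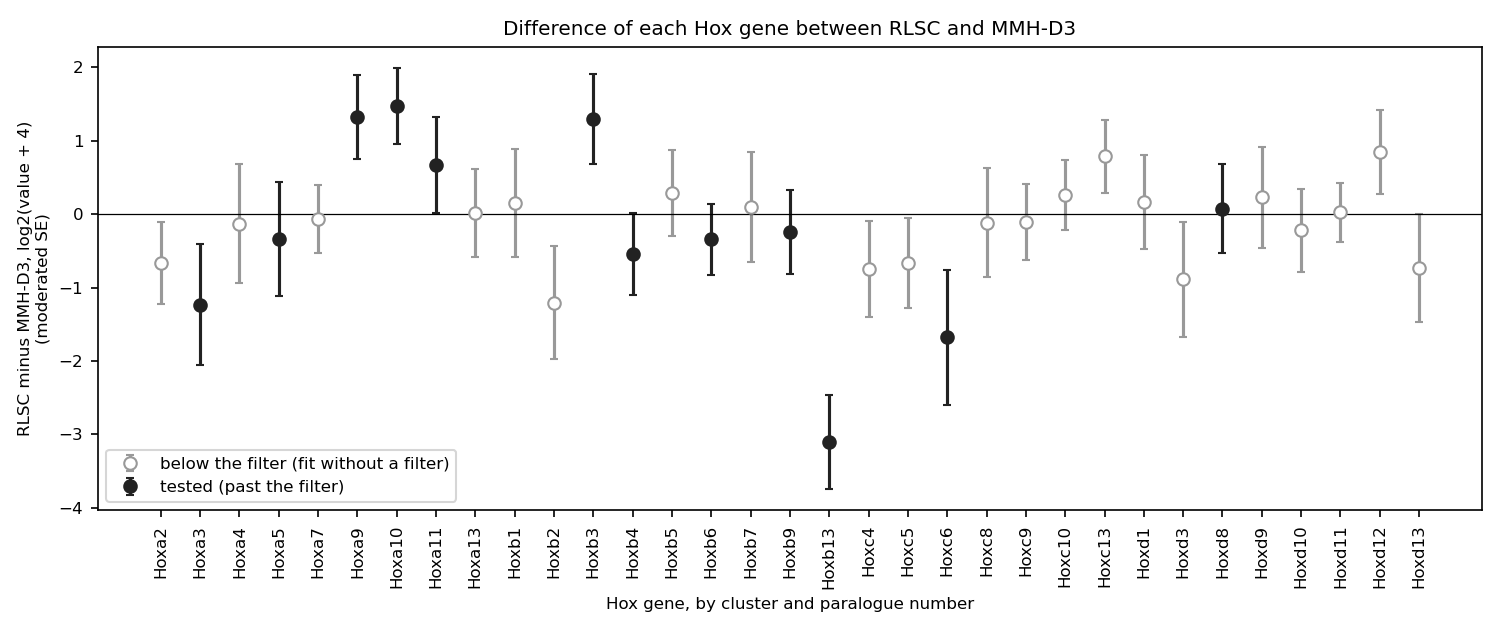
Difference RLSC minus MMH-D3 on the log2(value + 4) scale for each of the 33 Hox genes, in order of cluster and paralogue number, with bars for the moderated SE. Filled points are the 12 tested genes and open points the 21 below the filter, from the fit without a filter. Hoxa10, Hoxa9 and Hoxb3 stand highest (1.47, 1.32 and 1.30) and Hoxb13 lowest (−3.11); none passed the adjusted threshold.

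In the HoxB cluster, Hoxb3, a hindbrain gene, read 102.5 in MetE14/3, 76.1 in WTE14/1, 15.3 on MMH-D3 array 1 and 50.3 on array 2. Both RLSC lines were above both MMH-D3 arrays (means 89.3 ± 18.7 and 32.8 ± 24.7, SD, n = 2 each). The difference was 1.30 (SE 0.61, limma adjusted p 0.474), with 2.18 in pair A and 0.41 in pair B. Its second probe set read 5.1, 41.7, 3.6 and 31.9, where the arrays followed the pairs and not the groups.

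Hoxb13, the most posterior HoxB gene, known from the prostate and hindgut, read 0.9 in MetE14/3, 2.31 in WTE14/1, 49.3 on MMH-D3 array 1 and 30.3 on array 2. Both RLSC signals were below the amount added before the log2, and both MMH-D3 signals were above the filter level. Means were 1.60 ± 0.99 and 39.8 ± 13.4 (SD, n = 2 each), and the difference was −3.11 (SE 0.64), with values of −3.72 in pair A and −2.49 in pair B. The limma adjusted p was 0.108, and 0.151 in the fit without a filter. The difference rests on 1 probe set, and its size depends on the pseudocount: with 16 in place of 4 it was −1.76. Hoxb13 had no value under the alternatives in which its mean fell below the filter, which left out either MMH-D3 array or used median scaling, no normalization, a pseudocount of 1 or a 60th percentile filter.

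The other tested HoxB genes had smaller differences, none past the threshold. Hoxb6 read 81.9 in MetE14/3, 69.1 in WTE14/1, 72.4 on MMH-D3 array 1 and 92.5 on array 2, with groups that overlapped as deposited and a difference of −0.35 (SE 0.48, limma adjusted p 0.864). Hoxb4, used to expand blood stem cells, read 17.2, 32.2, 33.5 and 27.5 in the same order, again overlapping as deposited, with a difference of −0.54 (SE 0.56). The second Hoxb4 probe set, below the filter, read 1.7, 1.04, 7.3 and 12.3, where the groups did not overlap. After normalization both RLSC lines were below both MMH-D3 arrays for Hoxb4 and Hoxb6. Hoxb9 read 22.3, 55.3, 24.6 and 53.1, where both arrays of pair B were the higher ones. A probe set shared by Hoxb8 and Hoxb7, which is no member, read 123, 56.3, 47.2 and 67.4. In HoxD the only gene tested was Hoxd8, with 21.7, 28.4, 10.9 and 34.7 and a difference of 0.07 (SE 0.61), the smallest of the 12 in size.

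Genes that work with or on Hox genes were read from lists. Of the Hox cofactors, Meis and Pbx family homeodomain proteins that bind DNA together with Hox proteins, 8 were tested and 0 passed, with 0 at an unadjusted p under 0.05. Their median difference was 0.71 (range −0.33 to 1.05), against 0.03 over all genes, and 4 of the 8 (Meis1, Meis3, Pbx2 and Pbx4) had both RLSC lines above both MMH-D3 arrays, where 20.8% of all genes do. Meis2, one of the brightest pair of the list with Pbx3, read 224 in MetE14/3, 342 in WTE14/1, 108 on MMH-D3 array 1 and 238 on array 2, with overlapping groups and a difference of 0.65 (SE 0.51, limma adjusted p 0.721). Pbx3 read 457, 265, 279 and 134, with MMH-D3 array 1 above WTE14/1. Meis1, a frequent partner of Hoxa9, read 118.5, 145, 34.9 and 84.3, with a difference of 1.00 (SE 0.51, limma adjusted p 0.514).

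**Figure D4:**
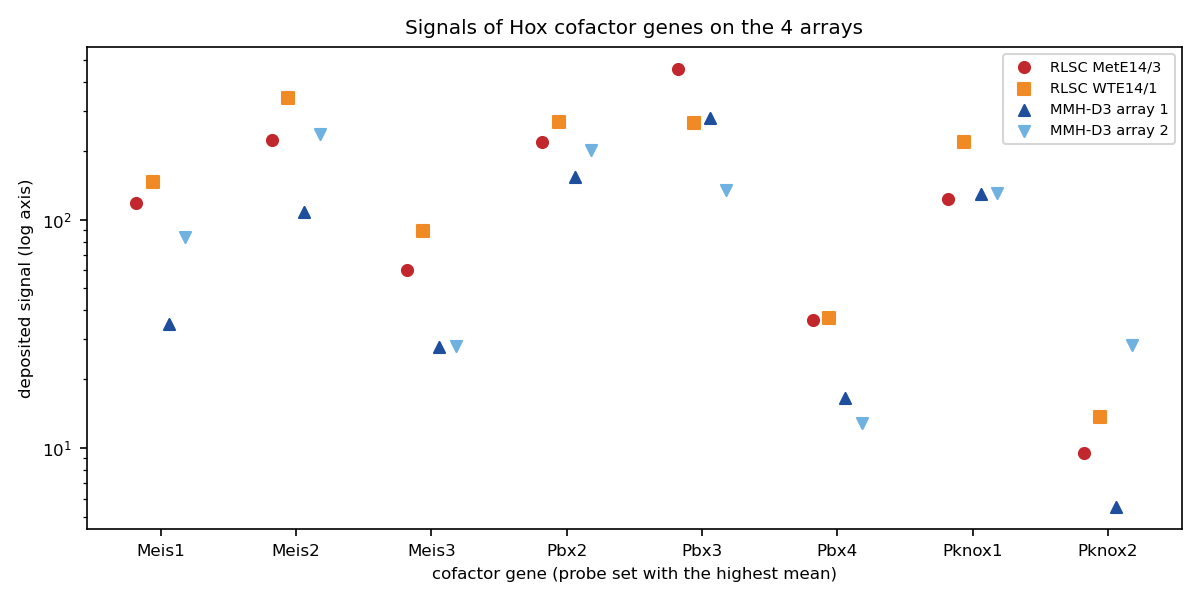
Deposited signals (log axis) of the 8 tested Hox cofactors on the 4 arrays, 1 symbol per array. Meis1, Meis3, Pbx2 and Pbx4 have both RLSC lines above both MMH-D3 arrays, and Meis2, Pbx3, Pknox1 and Pknox2 do not.

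Of 22 tested genes for Polycomb proteins and the enzymes that oppose them, 0 passed, with a median difference of 0.24. An unadjusted limma p under 0.05 was reached by 3 of the 22, against 12.4% of all genes. Both RLSC lines lay above both MMH-D3 arrays for 9 of them and below for 2, against 20.8% and 21.4% of all genes. Bmi1, a Polycomb subunit, read 1465 in MetE14/3, 1743 in WTE14/1, 890 on MMH-D3 array 1 and 1166 on array 2, and both RLSC lines lay above MMH-D3. Its difference was 0.69 (SE 0.36, adjusted p 0.523 by limma). Phc2, with Bmi1 the brightest of the list, read 1280, 1727, 1388 and 939 in the same order, with overlapping groups. The difference of Phc2 was 0.45 (SE 0.38, adjusted p 0.736 by limma). Of 9 tested retinoid, Cdx and boundary genes, 0 passed, with a median of −0.03. An unadjusted limma p under 0.05 was reached by 1 of the 9, against 12.4% of all genes. Both RLSC lines lay above both MMH-D3 arrays for 4 of the 9 and below for 2, against 20.8% and 21.4% of all genes. Cdx2, an activator of Hox genes in the gut, read 370, 245, 510 and 433, and both RLSC lines lay below MMH-D3. Its difference was −0.69 (SE 0.45, adjusted p 0.641 by limma). Ctcf, with Cdx2 the brightest of the list, read 904, 994, 875 and 674, and both RLSC lines lay above MMH-D3. The difference of Ctcf was 0.34 (SE 0.37, adjusted p 0.815 by limma). Cyp26b1, which breaks down retinoic acid and was named after its values were seen, read 52.7, 73.0, 1.1 and 8.23, a difference of 2.95 (SE 0.63, limma adjusted p 0.118). Both of its MMH-D3 signals lay below the filter level, so it passed the filter only through the RLSC lines, where it was high. The signal of 1.1 is below the amount added before the log2, so the size of the difference depends on that amount. Of 10 tested genes listed as neighbours of the clusters, 0 passed, with a median of −0.16 and 0 at an unadjusted p under 0.05. Mtx2, next to HoxD, read 846, 1099, 1081 and 1053, with overlapping groups. Hibadh, with Mtx2 the brightest of the list, read 789, 692, 745 and 1322, where the groups overlapped too.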

How the data were processed

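The values the authors deposited are linear intensity signals per probe set, which GCOS produced per the submitters' processing notes. Its version is not given in the sources used here. All 4 arrays had a trimmed mean of 200, and their medians ranged from 16.9 to 27.98. The number of arrays limits the precision. After the 64 control probe sets were removed, values were taken as log2(value + 4), which understates the folds of low genes, and quantile normalized. The filter kept probe sets whose mean reached the 40th percentile, near a signal of 11.7, and a gene took the values of its brightest probe set by mean. The groups were compared over all genes by limma 3.58.1 in R 4.3.3 (eBayes with trend, two-sided, Benjamini-Hochberg adjustment at 0.05). The procedure was tested on simulated data with the same spread for every gene and only large changes. That test does not cover small differences or unequal spread. The alternatives were other scalings, filters, pseudocounts and probe set rules, the spike-in pair as a block, and leaving out each array. All 4 signals are given for Hox genes with a signal of 100 or more, called, or at least 4-fold apart between the lines; context lists are represented by their called or brightest genes. Other named genes were chosen after their values were seen. The members and lists were chosen with earlier results of these data known. RefSeq names and promoters are of GRCm38.p6.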

Additional observations from a re-analysis of the deposited data

How the results depend on the processing

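No Hox gene passed under any of the 14 alternatives run, where all genes called numbered 115 in the reported fit, 198 with each probe set tested, 184 with median scaling, 9 without the filter, and 0 to 206 when 1 array was left out (0 without either MMH-D3 array, 206 without MetE14/3 and 27 without WTE14/1). With the spike-in pair as a block it was 164. The lowest adjusted p of a Hox gene was 0.0819, for Hoxb13 without the intensity trend; Hoxb13 passed the filter in 8 of the 14. The median difference of the Hox genes was −0.29. It was 1.30 with a 60th percentile filter (5 genes), 0.0045 with each probe set, −0.033 without normalization, and −0.34 to 0.082 when 1 array was left out; its sign is therefore not settled. Median scaling and no normalization put the median of all genes at −0.11 and 0.10, against 0.03. Hox genes at least 4-fold apart between the RLSC lines numbered 3 of 12, but 1 of 5 with the 60th percentile filter and 0 of 12 with a pseudocount of 16. Genes whose groups did not overlap numbered 7 of 12 in the reported fit, where 20.8% of all genes lay above and 21.4% below. They numbered 4 of 5 with that filter, 4 of 12 on the deposited signals and 3 of 11 without normalization. Without the filter they numbered 8 of 33. These alternatives were chosen after seeing the data. Leaving out 1 array turned the sign of Hoxa5 (−1.47 to 0.75), Hoxb9 (−0.65 to 0.13, with 0.04 and 0.13 without MMH-D3 array 2 and MetE14/3) and Hoxd8 (−0.47 to 0.60); the cause was not tested. It also moved Hoxa3 (−2.26 to −0.16), Hoxc6 (−2.87 to −0.40), Hoxa11 (0.010 to 1.29), Hoxb4 (−0.88 to −0.22) and Hoxb6 (−0.58 to −0.11) without turning the sign. Hoxa9, Hoxa10 and Hoxb3 kept a positive difference under each of 14 alternatives (0.85 to 1.82, 1.08 to 1.84 and 0.69 to 1.87). Most of these could hardly turn the sign. The other filters, the block, the fit without the trend and each probe set returned the reported estimate itself (1.47 for Hoxa10). Leaving out 1 array could hardly turn it either, because both RLSC lines already lay above both MMH-D3 arrays for these genes. By replicate number, no paired analysis was possible because the RLSC labels carry none; the block above uses the spike-in pair instead. Low signals limit most of the members: 21 of 33 were not tested.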
